A study of Mus musculus with 12 samples.

Results

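Transcript levels of 9 growth factor receptor tyrosine kinase genes, Mst1r, Met, Egfr, Erbb2, Erbb3, Fgfr4, Insr, Igf1r and Axl, were followed across 12 mouse liver libraries. They are 9 of the 24553 entries in each deposited table, were found by gene symbol, and each had 1 entry of its own. The 9 were chosen by symbol with earlier results of the same libraries known, and the measured values behind that choice were FPKM levels in these groups, among them that of Mst1r in tumors. The libraries form 4 groups of 3. The normal livers are those of 8-month-old males that received no diethylnitrosamine (DEN), a chemical that causes liver tumors. For the tumors, males were injected with DEN once, 25 mg/kg, when 2 weeks old, and tissue was collected after 8 months. The genotypes are wild type (WT) and Setd2 knockout (KO), the latter called cKO in the sample titles. The labels do not say which cells lost Setd2, which promoter drove the deletion or whether each library is a separate animal. P-values therefore measure the spread between these samples. The hour at which tissue was collected is not given in the labels. Values are FPKM, fragments scaled by transcript length and by the mapped total, so levels of different genes can be compared per length, while the read depth behind them is unknown.

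Receptor tyrosine kinases span the cell membrane, bind a secreted ligand outside the cell and phosphorylate tyrosines on themselves and on adaptor proteins inside it. From there signals run mainly to the RAS-ERK cascade, which drives division, and to PI3K and AKT, which carry the metabolic effects of insulin. In liver, MET answers hepatocyte growth factor and EGFR answers EGF-family ligands, and both are needed for regeneration. INSR mediates the insulin response, FGFR4 receives the intestinal bile acid signal, and AXL is found mainly on macrophages and other non-parenchymal cells. SETD2, whose gene was targeted here, trimethylates lysine 36 of histone H3 along transcribed genes.

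Setd2 itself lay between 3.84 and 4.84 in WT liver and between 1.32 and 1.93 in KO liver, a log2 difference of -1.05 ± 0.14 (SE, adjusted p = 0.0108, limma). It lay between 3.61 and 4.40 in WT tumors and between 1.90 and 3.14 in KO tumors, without overlap, but the difference did not pass the test (adjusted p = 0.188). Its transcript was thus lower in every KO library and present in all of them. Summed FPKM per library was 423498.5 to 719537.8, with 10233 to 11620 entries at 1 or more. These sums leave out or include single abundant genes whose listed value is doubtful: Alb, the serum albumin gene, is at 14256 in KO tumor 2 and at 0 in the remaining 11, and Ahsg, a hepatocyte secreted protein gene, is at 0 in WT tumor 1 alone. The entry of Gapdh, an abundant housekeeping gene, is at 1.344 at most and at 0 in 1 library. An entry at 0, or a low value above it, may therefore be a failed estimate. The sums and any scaling to a common sum carry this. Libraries of 1 group were least alike among KO tumors, where the lowest Pearson r across genes was 0.924. All 9 hepatocyte markers examined were above 1 in all libraries, and their summed level was 43881 to 46128 in WT liver, 47056 to 48647 in KO liver, 42141 to 49351 in WT tumors and 22067 to 40089 in KO tumors.

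By group means Egfr was the most abundant of the 9 receptor transcripts in all 4 groups, though in KO tumor 2 it (11.1) was below Fgfr4 (24.7). Its mean in WT liver was 185.9 ± 23.4 FPKM (SD, n = 3), followed by Erbb3 at 24.5 ± 2.30, Fgfr4 at 16.2 ± 1.14, Insr at 12.004 ± 2.04, Met at 10.1 ± 1.72 and Axl at 3.02 ± 1.13. Erbb2, Igf1r and Mst1r were at 0.158 ± 0.035, 0.123 ± 0.020 and 0.049 ± 0.024. Met, Egfr, Erbb3, Fgfr4, Insr and Axl exceeded an FPKM of 1 in all 12 libraries, and counts of receptors below refer to these 6. Erbb2 and Igf1r never reached 1 and were not among the 11671 entries tested. Mst1r reached it in the 3 WT tumors alone. It therefore passed the filter on low values only through the group where it was high, and its levels are given as a description with no test.

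**Figure D1:**
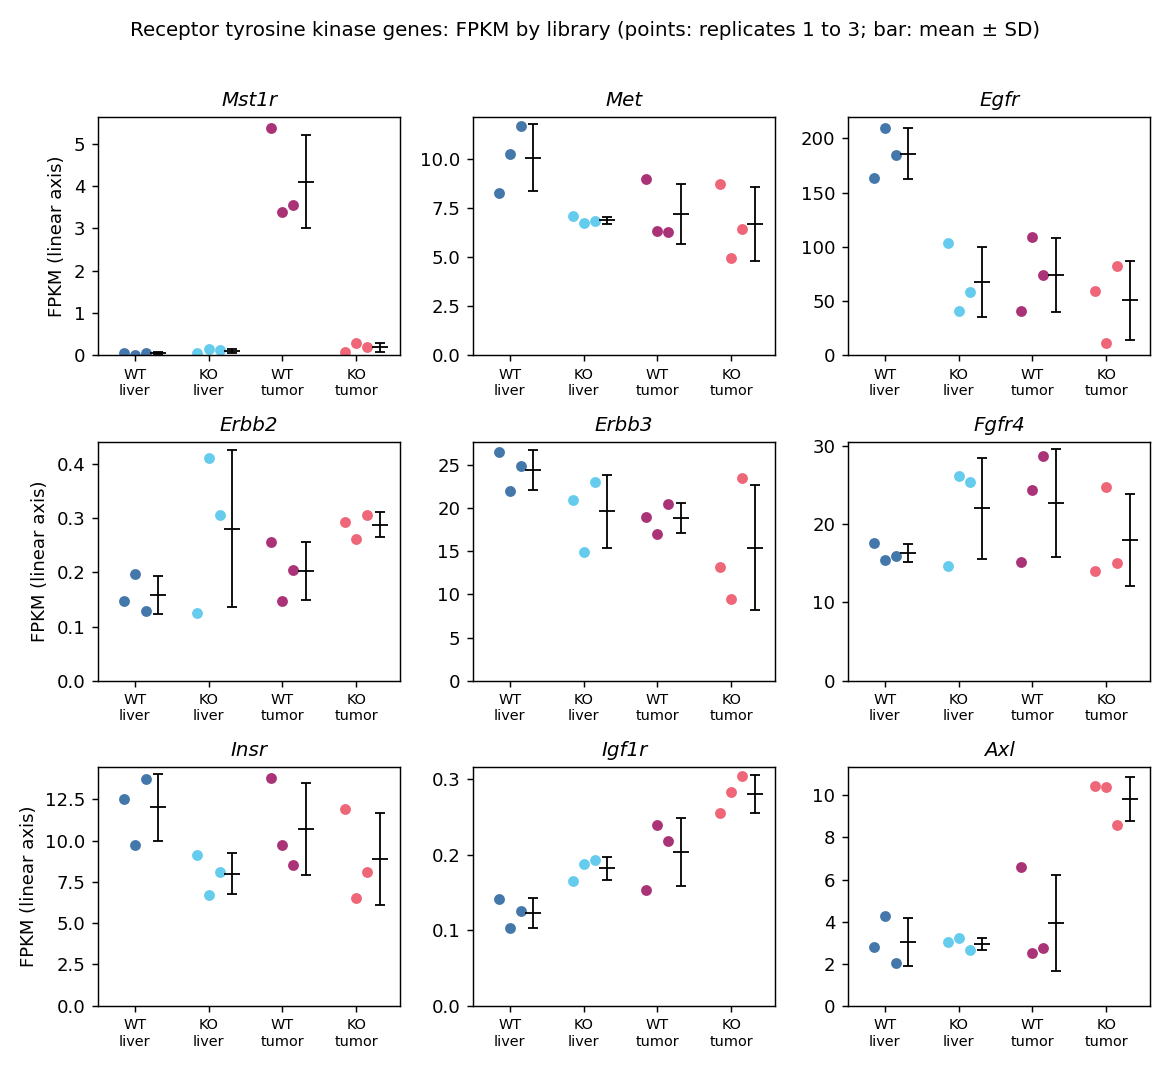
FPKM of the 9 receptor genes in each library, on linear axes that start at 0 and differ between panels; points are replicates 1 to 3 of a group and bars show the mean ± SD (n = 3). Mst1r stands high in the 3 WT tumors, Egfr in the 3 WT livers and Axl in the 3 KO tumors, while Fgfr4 splits within groups.

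Changes are differences of log2(FPKM + 1), so those of genes near or below an FPKM of 1 understate the ratio, and a call means an adjusted p below 0.05 over all 11671 entries. Between KO and WT normal liver 1 of the 6 receptors was called, Egfr, which was lower. Among all tested entries 18.1% were called in this comparison, and 8.77% were called as lower. Between KO and WT tumors none of the 6 was called by limma, where 0.0771% of entries were called, and 1 of the 6 (Axl) had an unadjusted p below 0.05, against 17.6% of entries. Tumor against normal liver gave 1 lower receptor in WT mice, Egfr again, with 17% of entries called (8.96% of all as lower), and 1 higher receptor in KO mice, Axl, with 14.3% of entries called (9.09% of all as higher). The KO effect was not called different between tumor and normal liver for any of the 6, where 2.08% of entries were called and 1 receptor (Axl) had an unadjusted p below 0.05 against 22.3% of entries. The receptors' median change was -0.40 between KO and WT liver (0.03 over all entries), -0.29 between KO and WT tumors (0.02), -0.26 between WT tumor and liver (-0.04) and -0.17 between KO tumor and liver (-0.02). As all libraries are bulk tissue, fewer cells of a type and less RNA per cell cannot be told apart in any of these changes.

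**Figure D2:**
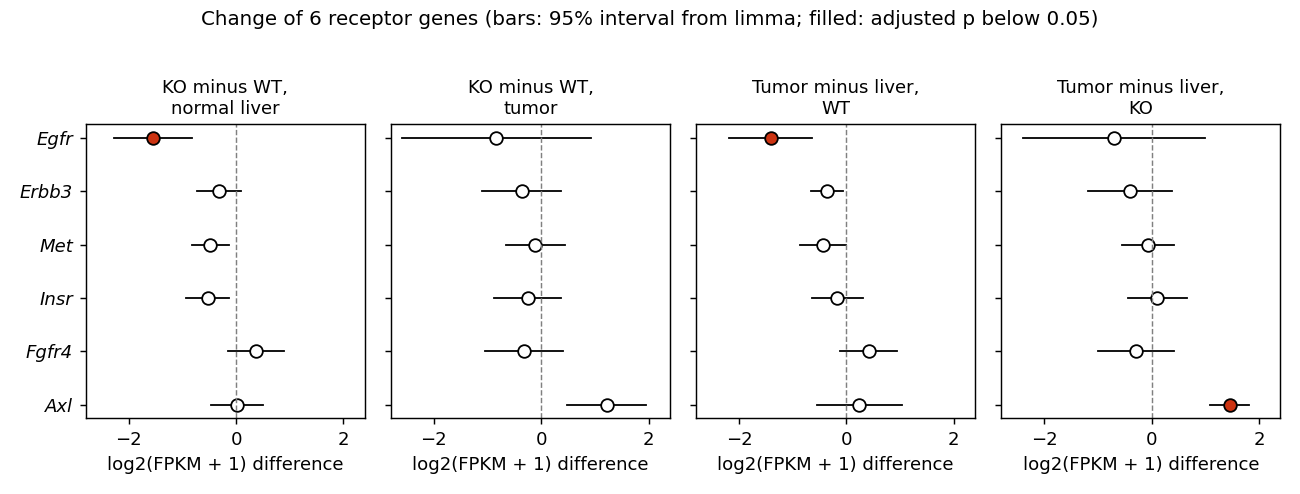
Difference of log2(FPKM + 1) for the 6 receptor genes expressed in all libraries, with 95% intervals from limma; filled points have an adjusted p below 0.05. Egfr was lower in KO than in WT liver (-1.54) and in WT tumor than in WT liver (-1.41), and Axl was higher in KO tumor than in KO liver (1.45).

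The EGF receptor family showed its main difference in Egfr, which encodes the receptor of EGF, TGF-alpha, amphiregulin and related ligands. Egfr stood at 163.1, 209.8 and 184.7 FPKM in WT liver and at 103.3, 40.7 and 58.8 in KO liver. Every KO liver lay below every WT liver, a ratio of means of 2.75. The log2 change was -1.54 ± 0.31 (SE, adjusted p = 0.023, limma). Leaving out 1 library kept the direction each time, with changes of -1.90 to -1.24, but the call was lost without WT liver 2 (adjusted p = 0.0682), WT liver 3 (0.0825) or KO liver 3 (0.0655). It was also lost with the replicate number as a block (0.0675), without the filter on low FPKM (0.0775) and in 1 fit of all 12 libraries (0.136). Of all entries 18.1% were called in KO liver, and of the 9 hepatocyte markers 1 rose and 1 fell. Their summed FPKM was higher in KO liver (47056 to 48647) than in WT liver (43881 to 46128), but the mean of their log2(FPKM + 1), in which each marker weighs alike, was wholly lower (10.94 to 11.05 against 11.15 to 11.36), and their part in the Egfr level was not tested.

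In WT tumors Egfr was at 40.5, 108.9 and 73.9 FPKM, again below all 3 WT livers (as were 23.8% of tested entries), at a ratio of means of 2.50. The log2 change from WT liver was -1.41 ± 0.33 (adjusted p = 0.0311). This comparison uses the same 3 WT livers as the one between KO and WT liver. The call was lost without any 1 of the 3 WT livers (adjusted p 0.0679 to 0.106), without WT tumor 3 (0.063), without the filter (0.094) and in 1 fit of all 12 libraries (0.167). KO tumors held 59.1, 11.1 and 82.5, and the lowest Egfr value of the series was that of KO tumor 2. They overlapped WT tumors (change -0.83 ± 0.74, adjusted p = 0.604) and KO livers (-0.70 ± 0.72, adjusted p = 0.527). Without KO tumor 2 these changes were 0.02 and 0.15. The mean log2 level of the hepatocyte markers was 10.56 to 10.78 in WT tumors and 8.92 to 10.69 in KO tumors, below both normal liver groups. The 95% interval of the difference between KO and WT tumors ran from -2.59 to 0.92, so a change as large as that in liver lies within it. The KO effect in tumor minus that in liver was 0.71 ± 0.89 (adjusted p = 0.673).

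Egfr spans 166.0 kb on chromosome 11, chr11:16752203-16918158 on the plus strand of GRCm38, and its longest annotated transcript has 28 exons. The annotation places an antisense gene, Egfros, within this span, and the libraries do not keep the strand, so reads of the 2 cannot be told apart where they overlap. Its promoter is shown because Egfr was the receptor called between KO and WT liver. The 250 bases before its RefSeq start site (GRCm38.p6, chr11:16751953-16752202, plus strand, 5′ to 3′) are printed with motif matches in capitals, here a GC box and an HNF1 half-site.

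Egfr: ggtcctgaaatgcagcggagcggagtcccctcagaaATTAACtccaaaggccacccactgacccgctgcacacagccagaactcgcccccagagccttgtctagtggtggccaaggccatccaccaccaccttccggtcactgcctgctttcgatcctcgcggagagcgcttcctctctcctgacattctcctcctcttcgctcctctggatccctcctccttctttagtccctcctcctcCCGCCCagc

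Matches to 8 short motifs were searched on both strands of these 250 bases in all 32851 RefSeq promoters of the build. The motifs were the TATA box (TATAAA, in 12.4% of promoters), the GC box (GGGCGG, 32.7%), the CCAAT box (CCAAT, 33.8%), the AP-1 motif (TGANTCA, 6.75%), the E-box bound by clock proteins (CACGTG, 6.02%), the D-box (TTATGNAA, 3.07%), an HNF1 half-site (GTTAAT, 6.43%) and an HNF4 motif (CAAAGTCCA, 0.384%). Promoters were found for 7 of the 9 receptor genes; Erbb3 and Insr had no entry. The Egfr promoter holds 11 CpG dinucleotides, against a median of 6 over all promoters. A match describes the letters in this window and nothing about binding. The 3 entries whose log2 levels followed Egfr most closely over the 12 libraries were Lrrc47 (r = 0.959), Polr1b (0.934) and Lpin2 (0.931), and each had its highest group mean in WT liver. Lpin2, a phosphatidate phosphatase gene, was at 62.3 to 90.7 FPKM in WT liver and 26.9 to 54.6 in KO liver.

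Erbb3 encodes the kinase-impaired member of the EGF receptor family, which signals through partner receptors and binds neuregulins. It was at 26.5, 22.0 and 24.9 FPKM in WT liver, 21.0, 14.9 and 23.0 in KO liver, 19.0, 17.0 and 20.5 in WT tumors, and 13.2, 9.49 and 23.5 in KO tumors. WT tumors lay wholly below WT livers, but this difference of -0.36 ± 0.12 was not called (adjusted p = 0.0876), and the other groups overlapped. Like Egfr, Erbb3 had its lowest value in KO tumor 2. Its closest entries were Fam47e (r = 0.929), Maob (0.917), a monoamine oxidase gene, and Slc6a12 (0.913), a betaine transporter gene, all with group means falling in the order WT liver, KO liver, WT tumor, KO tumor.

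Erbb2, the family's partner receptor without a ligand of its own, ranged from 0.125 to 0.412 FPKM over the 12 libraries. The highest value was that of KO liver 2 and the lowest that of KO liver 1, so the spread within 1 group covered the whole range. Erbb2 lies next to Grb7, an adaptor gene, and overlaps Mien1 on the other strand. Grb7 was at 19.1 to 32.9 in KO tumors and 42.2 to 78.1 in KO liver, a called fall of 1.19 ± 0.31 on the log2 scale (adjusted p = 0.0449), and Mien1 was between 42.9 and 111.9 in all libraries. As the libraries do not keep the strand, reads of Erbb2 and Mien1 cannot be told apart where the genes overlap. Erbb4, the remaining family member, did not exceed 0.273 in any library.

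Met and Insr, the receptors of hepatocyte growth factor and of insulin, were both lower in every KO liver than in every WT liver, yet neither passed the test. Met was at 8.28, 10.3 and 11.7 FPKM in WT liver and at 7.10, 6.74 and 6.83 in KO liver, a change of -0.48 ± 0.14 (adjusted p = 0.0587). Insr was at 12.5, 9.76 and 13.7 in WT liver and at 9.15, 6.69 and 8.12 in KO liver, a change of -0.53 ± 0.17 (adjusted p = 0.0672). Met was called without WT liver 1 (-0.60, adjusted p = 0.0474) and after scaling to a common FPKM sum (adjusted p = 0.0484). With Egfr, 3 of the 6 receptors lay wholly below WT in KO liver, against 20.7% of all tested entries that did so.

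In tumors Met and Insr did not separate by genotype. Met was at 8.99, 6.36 and 6.31 in WT tumors and at 8.72, 4.94 and 6.45 in KO tumors (change -0.11 ± 0.23, adjusted p = 0.853). Insr was at 13.8, 9.74 and 8.49 in WT tumors and at 11.9, 6.55 and 8.13 in KO tumors (-0.25 ± 0.26, adjusted p = 0.657). In both genes replicate 1 had the highest value of each tumor group and KO tumor 2 the lowest of all tumors. Tumor and normal liver overlapped for both genes in both genotypes. Entries closest to Met were Rab18 (r = 0.958), Ythdf3 (0.951) and Sp3 (0.949), and those closest to Insr were Dlg1 (0.948), Hnrnpk (0.940) and Nbr1 (0.937).

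The 3 receptors that lay wholly below WT in KO liver are also the longest of the 6. Egfr spans 166.0 kb, Insr 157.6 kb (chr8:3122061-3279617, minus strand) and Met 110.2 kb (chr6:17463800-17573980, plus strand). The 3 that overlapped span 31.4 kb (Axl), 22.1 kb (Erbb3, chr10:128567523-128589652, minus strand) and 16.1 kb (Fgfr4). Igf1r, which is not among the 6 and stayed below 1 FPKM, spans 280.8 kb, more than any of them. It went the other way, wholly above WT in KO liver (0.165 to 0.193 against 0.103 to 0.142). Over all tested entries that could be placed on the annotation, the 1216 that span 100 kb or more had a median change of -0.10 in KO liver, and 30.1% lay wholly below WT. Those of shorter span, 9308 entries, had a median of 0.04 and 19.9% lay wholly below WT. The limit of 100 kb was chosen after the receptor values were seen. When each library's trend with transcript length was removed, the change in KO liver was -1.32 for Egfr (adjusted p = 0.0371), -0.30 for Met (0.175) and -0.31 for Insr (0.185). Transcript length is not gene span, so this fit does not address the span. The part of gene span in these changes was not tested.

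Igf1r, the receptor of IGF-1 and IGF-2, which adult hepatocytes are known to express little of, was below 1 FPKM everywhere but ordered by group. It was at 0.142, 0.103 and 0.125 in WT liver, 0.165, 0.188 and 0.193 in KO liver, 0.154, 0.239 and 0.219 in WT tumors, and 0.255, 0.284 and 0.305 in KO tumors. Both KO groups lay wholly above the WT group of the same tissue, and both tumor groups wholly above the normal liver of the same genotype. WT tumor 1 (0.154) was only just above the highest WT liver (0.142). Of tested entries 13.8% were wholly higher in KO than in WT tumors, and 21.3% in KO tumors than in KO liver. Shares for the other differences are not given. In a fit without the filter on low FPKM none of the 4 differences passed the test (adjusted p = 0.0781, 0.334, 0.129 and 0.0696 in the order KO liver, KO tumor, WT tumor against liver, KO tumor against liver). The Igf1r gene (chr7:67952827-68233668, plus strand) spans 280.8 kb, the longest of the 9 receptors. The entry closest to it was Emp2 (r = 0.966), a membrane protein gene, at 1.16 to 1.44 in WT liver, 2.19 to 3.96 in KO liver, 1.86 to 9.40 in WT tumors and 8.76 to 15.5 in KO tumors.

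Mst1r encodes RON, the receptor of macrophage-stimulating protein, a serum protein made by hepatocytes from the Mst1 gene. It was at 5.36, 3.38 and 3.56 FPKM in WT tumors and at 0.078, 0.289 and 0.197 in KO tumors, a ratio of means of 21.8. Normal liver held 0.069, 0.022 and 0.055 in WT mice and 0.057, 0.145 and 0.129 in KO mice. The 3 WT tumors thus stood apart from the other 9 libraries, and the mean of KO tumors (0.188 ± 0.106) was close to that of KO liver (0.110 ± 0.047), whose values it overlapped. The ligand gene differed far less: Mst1 was at 102.6 to 108.1 in WT liver, 95.1 to 119.7 in KO liver, 113.5 to 122.6 in WT tumors and 49.7 to 95.3 in KO tumors. Its highest group mean was also that of WT tumors. They lay wholly above WT liver and KO tumors but overlapped KO liver, and Mst1 was not called in any comparison.

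The Mst1r gene spans 13.5 kb (chr9:107906873-107920383, plus strand) and its longest transcript has 19 exons. The neighbors on 1 side, Mon1a and Rbm6, were expressed in all 12 libraries, Mon1a at 4.35 to 8.66 FPKM and Rbm6 at 7.32 to 11.2. Those on the other side, Actl11 and Camkv, were at or near 0 in all libraries. The high level in WT tumors therefore did not extend to these 4 genes. RefSeq gives Mst1r 2 start sites 8114 bases apart, the second inside the gene, and a gene-level FPKM does not tell transcripts from them apart. Both upstream windows are shown because the files do not tell which start was used in WT tumors (GRCm38.p6, chr9:107906639-107906888 and chr9:107914753-107915002, plus strand, matches in capitals).

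Mst1r, first start site: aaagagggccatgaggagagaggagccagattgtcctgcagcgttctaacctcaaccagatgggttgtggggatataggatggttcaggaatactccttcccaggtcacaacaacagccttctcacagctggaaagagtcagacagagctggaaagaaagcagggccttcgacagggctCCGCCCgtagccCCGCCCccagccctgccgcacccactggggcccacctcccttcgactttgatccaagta

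Mst1r, second start site: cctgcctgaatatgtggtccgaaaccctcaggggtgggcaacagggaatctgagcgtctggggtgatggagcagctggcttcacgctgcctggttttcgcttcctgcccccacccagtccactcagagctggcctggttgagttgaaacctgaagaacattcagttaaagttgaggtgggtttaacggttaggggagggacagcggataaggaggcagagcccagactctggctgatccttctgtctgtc

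The first window holds GC boxes at 2 positions and 7 CpG dinucleotides, and the second holds none of the 8 motifs and 6 CpG dinucleotides. The 3 entries whose log2 levels followed Mst1r most closely over the 12 libraries, of 10390 searched, were Gldn (r = 0.979), Nxn (0.954) and Bmp4 (0.946). Gldn was at 3.22 to 7.40 in WT tumors and at most 0.658 in all other libraries. Bmp4, which encodes a secreted signaling protein, had means of 3.40 in WT tumors and 0.880 in KO tumors. As the 3 WT tumors stand apart from the other 9 libraries in Mst1r, these r values mainly describe that separation.

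Fgfr4 encodes the receptor through which FGF15, sent from the gut, restrains bile acid synthesis in hepatocytes, with beta-klotho (Klb) as co-receptor. Its level differed more within 3 of the groups than between any groups. WT livers held 17.5, 15.3 and 15.9 FPKM, KO livers 14.6, 26.1 and 25.3, WT tumors 15.1, 24.3 and 28.6, and KO tumors 14.1, 24.7 and 15.02. The 12 values thus fell into 7 libraries between 14.1 and 17.5 and 5 between 24.3 and 28.6. None of the 4 comparisons of groups was called, with changes of 0.38 in KO liver (adjusted p = 0.251), -0.32 in KO tumor (0.627), 0.41 from liver to tumor in WT (0.227) and -0.28 in KO (0.542). The call depended on single libraries: without KO liver 1 the change in KO liver was 0.64 (adjusted p = 0.027), and without WT tumor 1 that from liver to tumor in WT was 0.67 (adjusted p = 0.0176).

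The gene whose levels followed Fgfr4 most closely was Arntl (r = 0.979 over 12 libraries), which encodes the clock activator BMAL1, and Npas2 (0.916), which encodes a partner of BMAL1, was also among the closest. Arntl was at 6.10 and 5.71 FPKM in KO livers 2 and 3, 6.26 and 10.8 in WT tumors 2 and 3, and 3.94 in KO tumor 2, the same 5 libraries in which Fgfr4 was high. In the other 7 libraries it was between 0.189 and 1.28. Since the libraries fall into these separate sets for both genes, r mainly describes the split.

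Of 4 other clock genes, Dbp (r = -0.828), Nr1d2 (-0.719) and Cry1 (0.763) followed Fgfr4 less closely than Arntl and Npas2 did, and Nr1d1 hardly did (-0.300). Among KO tumors Nr1d1 was highest (19.6) and Cry1 lowest (3.29) in KO tumor 2, unlike in KO liver and WT tumors, where the libraries of high Arntl had the lower Nr1d1 and the higher Cry1. Dbp, a clock output gene that peaks at another time of day than Arntl, was at 2.45 and 8.46 in KO livers 2 and 3, 42.2 and 1.85 in WT tumors 2 and 3 and 9.98 in KO tumor 2, and between 24.8 and 117.1 elsewhere, so WT tumor 2 lay within the range of the others. All 3 WT livers and KO liver 1 had low Arntl, while KO livers 2 and 3 had high Arntl. The time of collection cannot be told apart from genotype for those libraries, and its part in the receptor levels was not tested. In KO liver 1, where Arntl (0.403) was within the range of WT liver, Egfr (103.3), Met (7.10) and Insr (9.15) were below every WT liver. Among WT tumors the 2 libraries of high Arntl had the higher Egfr values (108.9 and 73.9), and among KO livers they had the lower ones (40.7 and 58.8).

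**Figure D3:**
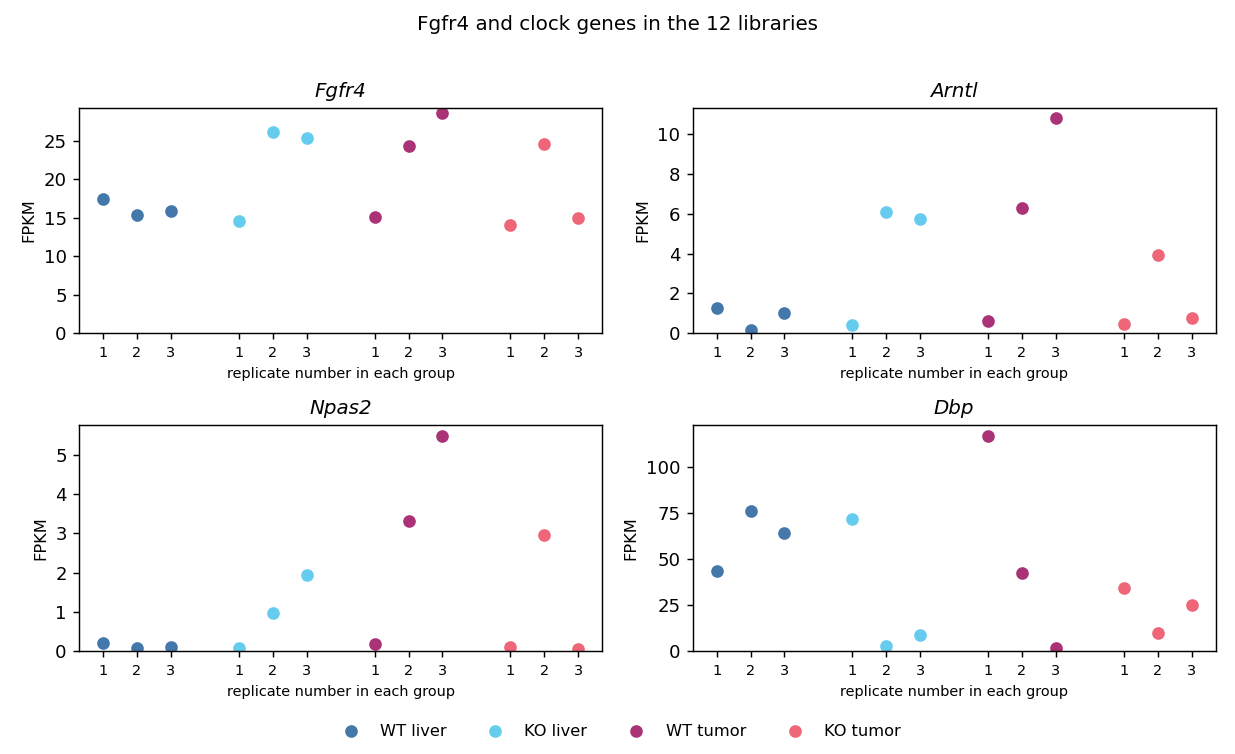
FPKM of Fgfr4 and of the clock genes Arntl, Npas2 and Dbp in each library, on linear axes, with replicate numbers on the x axis and colors for the 4 groups. The 5 libraries with Fgfr4 between 24.3 and 28.6 are those with Arntl between 3.94 and 10.8.

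Fgfr4 lies at chr13:55152640-55168759 on the plus strand. Its promoter is shown because its level followed clock genes (GRCm38.p6, chr13:55152568-55152817, plus strand, 5′ to 3′, with 2 GC boxes in capitals).

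Fgfr4: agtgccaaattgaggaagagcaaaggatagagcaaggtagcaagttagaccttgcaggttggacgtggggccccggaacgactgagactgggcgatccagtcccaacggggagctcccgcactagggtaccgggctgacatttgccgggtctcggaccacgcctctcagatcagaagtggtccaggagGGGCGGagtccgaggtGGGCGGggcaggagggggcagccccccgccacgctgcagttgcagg

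The 250 bases hold neither CACGTG nor TTATGNAA, the E-box and D-box letters searched, and 15 CpG dinucleotides. Among the other promoters of the receptor genes, Met held the E-box letters, along with 3 GC boxes and an AP-1 motif.

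Genes that act with Fgfr4 were examined beside it. Klb was at 5.89 to 7.76 in WT liver, 5.38 to 5.57 in KO liver, 2.63 to 6.70 in WT tumors and 3.94 to 5.17 in KO tumors. Fgf15 was at 0.105 in KO tumor 2, and the other 11 libraries list it at 0. Cyp7a1, the rate-limiting enzyme of bile acid synthesis and a gene that FGFR4 signaling represses, was at 7.79 to 14.7 in WT liver, 7.49 to 11.3 in KO liver, 5.25 to 14.5 in WT tumors and 1.01 to 17.7 in KO tumors. Cyp8b1, the sterol 12-alpha-hydroxylase gene of the same pathway, was at 133.3 to 160.4, 64.1 to 195.3, 30.2 to 99.5 and 3.24 to 94.6 in these 4 groups, and neither gene was called in any comparison. Fgf21, which encodes a stress hormone of the liver, was higher in WT tumors (7.50, 14.1 and 24.6) than in WT liver (3.35, 3.78 and 1.01), a called rise with a ratio of means of 5.68 (adjusted p = 0.0262). It was at 1.73, 2.50 and 9.14 in KO liver and at 1.25, 91.9 and 4.45 in KO tumors. Within each of the 3 groups that hold both high and low Fgfr4, Fgf21 was higher in the libraries of high Fgfr4, although KO liver 2 (2.50) lay within the range of the 7 libraries of low Fgfr4 (1.01 to 7.50).

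Axl encodes a receptor of GAS6 and protein S that clears dying cells and dampens inflammation, mainly on macrophages. It was at 10.5, 10.4 and 8.61 FPKM in KO tumors and at 3.02, 3.20 and 2.64 in KO liver, a ratio of means of 3.33. The rise of 1.45 ± 0.16 was called (adjusted p = 0.00698) and stayed called in all alternatives and with any 1 library left out (adjusted p at most 0.0444). The groups were apart, as in 21.3% of tested entries that were higher in this comparison. WT tumors held 6.58, 2.52 and 2.73 and WT livers 2.77, 4.26 and 2.04, which overlapped (change 0.24 ± 0.34, adjusted p = 0.639).

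KO tumors also lay wholly above WT tumors in Axl (as in 13.8% of tested entries), by 1.22 ± 0.31 or a ratio of means of 2.49, but this was not called (adjusted p = 0.127). It was called in 1 fit of all 12 libraries (adjusted p = 0.0231). In normal liver the 2 genotypes overlapped (change 0.01 ± 0.21, 95% interval -0.47 to 0.50). The KO effect in tumor minus that in liver was 1.21 ± 0.39 (adjusted p = 0.11), and it was called when WT tumor 1, which had the highest Axl of the WT tumors, was left out (1.57, adjusted p = 0.0304).

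The 3 genes closest to Axl over the 12 libraries were Tbxas1 (r = 0.976), Pld4 (0.976) and Syk (0.971), with the KO tumors high in each, as for Axl. Pld4 was at 15.1 to 19.2 in KO tumors and 3.11 to 8.49 elsewhere. Macrophage markers moved with Axl only in part (r = 0.27 between Axl and the mean log2 level of 12 markers, over 12 libraries). The summed level of 12 Kupffer cell and macrophage markers was 183.1 to 288.3 in WT liver, 166.1 to 237.9 in KO liver, 96.1 to 329.9 in WT tumors and 250.4 to 485.2 in KO tumors, and none of the 12 was at 0 throughout a group. Of the 11 tested, 3 rose and none was called as lower between KO liver and KO tumor, where 9.09% of all entries rose. Changes below 0, none of them called, were those of Clec4f (-1.25), Vsig4 (-1.19), Timd4 (-0.68), Cd163 (-0.64) and Cd5l (-0.45).

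Cd68, a general macrophage marker, was at 22.3, 48.5 and 27.6 in KO tumors and at 6.45 to 14.2 in all other libraries. Clec4f, a marker of resident Kupffer cells, was instead at 12.6, 2.55 and 89.7 in KO tumors, while Axl was nearly even among them. Summed levels of 12 stellate cell and fibroblast markers were 202.9 to 296.2 in KO tumors, 85.1 to 99.8 in WT tumors, 92.7 to 155.5 in KO liver and 56.3 to 87.0 in WT liver. Of the 11 tested, 5 rose and none was called as lower from KO liver to KO tumor, where 9.09% of all entries rose. Col1a1, the marker of this list with the largest change, was at 33.2, 60.1 and 14.2 in KO tumors and at 5.04 or less elsewhere. Changes below 0, none of them called, were those of Lrat (-0.66, wholly lower), Dcn (-0.49), Colec11 (-0.08) and Reln (-0.02). Summed hepatocyte markers were 22067 to 40089 in KO tumors and 47056 to 48647 in KO liver. The r of Axl with the mean log2 level was 0.895 for the stellate cell and fibroblast markers and -0.82 for the hepatocyte markers. For lists of endothelial, cholangiocyte, lymphocyte and neutrophil markers it was between 0.029 and 0.606. The part of these cell types in the Axl level was not tested.

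**Figure D4:**
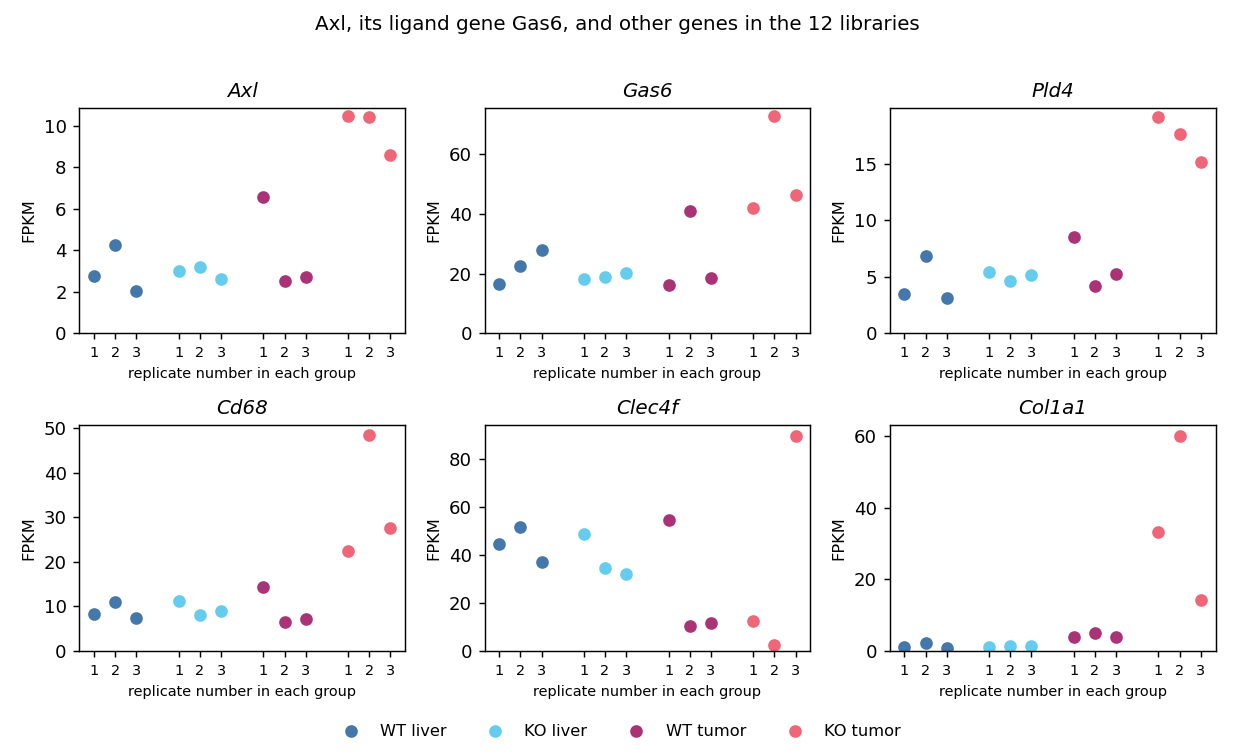
FPKM of Axl, its ligand gene Gas6, Pld4, the macrophage markers Cd68 and Clec4f and the collagen gene Col1a1 in each library, on linear axes, with replicate numbers on the x axis and colors for the 4 groups. Axl, Pld4, Cd68 and Col1a1 were highest in the 3 KO tumors, whereas Clec4f ranged from 2.55 to 89.7 among them.

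Axl lies at chr7:25757273-25788705 on the minus strand. Its promoter is shown because Axl was the receptor called in KO tumors (GRCm38.p6, chr7:25788734-25788983, minus strand, 5′ to 3′, with 1 GC box in capitals).

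Axl: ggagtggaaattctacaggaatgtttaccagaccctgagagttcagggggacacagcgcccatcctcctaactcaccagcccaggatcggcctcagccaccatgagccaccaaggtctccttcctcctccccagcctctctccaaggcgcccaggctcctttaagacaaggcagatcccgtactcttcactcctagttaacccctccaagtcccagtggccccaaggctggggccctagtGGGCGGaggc

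It holds 5 CpG dinucleotides. Of the 2 receptors related to AXL, Mertk was at 4.19 to 5.41 in KO tumors, 1.98 to 4.58 in WT tumors, 3.48 to 4.85 in KO liver and 4.33 to 6.79 in WT liver, and Tyro3 did not exceed 0.206.

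Genes that work with the receptors were followed in lists, for which counts refer to the same fits. These lists hold 76 calls over the 5 comparisons, none of which reversed its direction in any alternative or with any 1 library left out. In 7 cases, termed stable, the call held in all of these, and in 11 it held with any 1 library left out. Of the ligand genes of the 9 receptors, 13 of 22 listed were tested. Between KO liver and KO tumor 5 rose and none fell (9.09% of all entries rose and 14.3% were called), with a median change of 0.99 against -0.02 over all entries. They were Gas6 and Pros1, which encode the AXL ligands GAS6 and protein S, and Areg, Hbegf and Btc, which encode ligands of EGFR. Gas6 was at 42.2, 72.9 and 46.4 FPKM in KO tumors and at 18.2, 19.0 and 20.3 in KO liver (1.40 ± 0.24, adjusted p = 0.0157). Areg was at 2.27, 1.41 and 1.88 in KO tumors and was listed at 0 in the 3 KO livers. Like Mst1r, Areg passed the filter on low values only through the group where it was high. Its calls, here and for the KO effect in tumor against liver, stay in the counts of these lists but are not a test. No other ligand gene had a KO effect called different in tumor and liver. Hbegf was at 2.34 to 6.46 in KO tumors and 0.512 to 1.03 in KO liver, and Btc at 2.898 to 6.74 and 0.163 to 0.272. Between 1 and 6 ligand genes rose under the alternatives and leave-outs. So Axl and Gas6 were both higher in KO tumors than in KO liver, while Egfr (11.1 to 82.5 against 40.7 to 103.3) overlapped and its ligand genes Hbegf and Btc rose.

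In KO against WT normal liver 3 of the 13 ligand genes fell and none rose, where 8.77% of all entries fell and 18.1% were called. Igf1, the main endocrine growth factor of the liver, was at 230.9, 210.9 and 218.3 in WT and at 152.1, 116.4 and 118.3 in KO liver (-0.78 ± 0.13, adjusted p = 0.0161). Pros1 was at 22.6 to 37.8 in WT and 13.2 to 16.7 in KO liver (-0.89 ± 0.20, adjusted p = 0.0284). Nrg1, a ligand of ERBB3, was at 0.258 to 0.920 in WT and at most 0.088 in KO liver (adjusted p = 0.0442), all below an FPKM of 1. In WT tumors Nrg1 was at 2.65 to 5.19. It passed the filter on low values only through these WT tumors, where it was high. Its called rise from WT liver to WT tumor therefore stays in the counts but is not a test. Hgf was between 0.365 and 1.09 in all libraries, Egf at most 0.244, and Tgfa between 3.79 and 13.4. Igf2 was high in single tumors, 72.2 in WT tumor 1 and 194.3 in KO tumor 2, and at most 4.14 in the others. No ligand gene was called between KO and WT tumors, where 4 of the 13 had an unadjusted p below 0.05, against 17.6% of all entries.

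Genes that process or bind the ligands were less uniform. Of 19 tested, 2 rose in KO liver (18.1% of all entries were called). From liver to tumor 4 rose and 1 fell in each genotype (17% of all entries were called in WT and 14.3% in KO). Between KO and WT tumors none was called, and 8 had an unadjusted p below 0.05, against 17.6% of all entries. The share in KO liver was below that of all entries. Spint2, an inhibitor of the proteases that activate hepatocyte growth factor and macrophage-stimulating protein, was at 90.2 to 92.5 in WT and 140.9 to 169.3 in KO liver (0.74 ± 0.11, adjusted p = 0.0121). Hgfac, which encodes such a protease, was at 102.9 to 109.8 in WT liver and 162.9 to 289.0 in WT tumors (0.89 ± 0.23, adjusted p = 0.0397). St14, a membrane protease of the same kind, was at 0.355 to 0.620 in KO liver and 1.24 to 5.03 in KO tumors. Plau and Plat, the plasminogen activator genes, were also higher in KO tumors, at 2.09 to 3.82 and 1.20 to 7.29. In KO liver they were at 0.476 to 0.582 and 0.154 to 0.393. Like Areg, St14 and Plat passed the filter on low values only through the KO tumors, where they were high. Their calls in KO tumors stay in the counts but are not a test. Hpn, the gene of hepsin, another such protease, was between 193.5 and 303.1 in all libraries and not called. Among genes of IGF-binding proteins, Igfbp3 rose in WT tumors (10.3 to 10.9 against 4.14 to 5.93 in WT liver, adjusted p = 0.00872), and Igfbp1, which insulin represses, was at 68.4 to 479.4 in WT liver and 47.7 to 66.4 in KO liver, a difference that was not called (adjusted p = 0.153). The entry shared by Klkb1, a plasma protease gene, and Cyp4v3 fell in both tumor groups (-0.93, adjusted p = 0.0142 in WT; -0.86, adjusted p = 0.0485 in KO).

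Of 31 adaptor and signal transducer genes tested, 6 fell and 2 rose in KO liver, with a median change of -0.04. Of all entries 18.1% were called there and 8.77% fell. Irs2, which links the insulin receptor to PI3K, was at 4.73, 3.39 and 9.75 in WT and at 1.46, 1.08 and 1.37 in KO liver (-1.49 ± 0.31, adjusted p = 0.024). Irs1 was at 1.21 to 2.35 and 1.65 to 2.36, which overlapped. Mapk3, the kinase ERK1, was at 15.9 to 18.6 in WT and 30.0 to 35.0 in KO liver (0.86 ± 0.12, adjusted p = 0.0108). Pik3r2, a regulatory subunit of PI3K, was at 5.09 to 6.52 in WT and 8.53 to 12.04 in KO liver (adjusted p = 0.0279). Grb14, an inhibitory adaptor of INSR, was at 18.5 to 24.7 in WT and 24.7 to 29.9 in KO liver (adjusted p = 0.121). In tumors none was called by genotype (4 at an unadjusted p below 0.05, against 17.6% of all entries). From liver to tumor Mapk3 rose (0.69, adjusted p = 0.0129) and Akt2, an insulin-responsive kinase gene, fell (-0.70, adjusted p = 0.0124) in WT mice, and Grb10 rose (1.39, adjusted p = 0.0447) and Grb7 fell in KO mice. No other gene of the 31 was called there. The share called was below that of all entries, 17% in WT and 14.3% in KO.

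Of 35 tested genes that restrain receptor signaling, 10 fell and 1 rose in KO against WT normal liver, with a median change of -0.32 against 0.03 over all entries. Of all entries 8.77% fell and 18.1% were called. With the replicate block 1 fell and none rose. Socs3, an inhibitor of cytokine receptor signaling that also binds INSR and IRS proteins, was at 20.9, 23.3 and 33.0 in WT and at 5.01, 3.71 and 1.495 in KO liver (-2.67 ± 0.33, adjusted p = 0.00912, stable). Errfi1, which encodes the EGFR inhibitor MIG6, was at 647.9, 473.1 and 859.2 in WT and at 350.7, 340.4 and 251.9 in KO liver (-1.04 ± 0.24, adjusted p = 0.0306). Lrig1, which promotes the removal of EGFR from the membrane, changed by -0.79 (adjusted p = 0.0417). Ptpn1, the phosphatase PTP1B that acts on INSR, was at 10.3, 26.4 and 24.1 in WT and at 7.60, 5.62 and 5.80 in KO liver (-1.44 ± 0.33, adjusted p = 0.0313), and Socs2, an inhibitor of growth hormone signaling, changed by -1.69 (adjusted p = 0.043). The other 5 that fell were Spred1, Spred2, Cblb, Stam and Stam2, and Cblc, a ubiquitin ligase gene, rose (0.85, adjusted p = 0.0244). Egfr thus fell in KO liver together with Errfi1 and Lrig1, genes of its inhibitors. Under the alternatives and with any 1 library left out, between 1 and 10 of the 35 fell and at most 2 rose, and the call of Socs3 held each time (adjusted p at most 0.0483).

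In tumors none of the 35 was called by genotype, and 4 had an unadjusted p below 0.05, against 17.6% of all entries. Socs3 was at 3.39 to 5.14 in WT tumors and 5.99 to 8.32 in KO tumors. The KO effect on Socs3 differed between tumor and liver (3.26, adjusted p = 0.0146, stable), as did that on Ptpn1 (1.94, adjusted p = 0.0402) and Stam2 (0.91, adjusted p = 0.0499). From liver to tumor 3 genes rose and 4 fell in WT mice, and 5 rose and none fell in KO mice, near the shares of all entries called (17% and 14.3%). Their median change was -0.13 in WT and 0.35 in KO mice (-0.04 and -0.02 over all entries). Dusp5 and Dusp4, phosphatases that switch off ERK, rose by 2.04 (adjusted p = 0.0395) and 1.64 (adjusted p = 0.0188) in KO tumors against KO liver, as did Trib3, an inhibitor of AKT, by 2.01 (adjusted p = 0.0205). In WT tumors against WT liver Socs3 fell by 2.33 (adjusted p = 0.00176, stable), Errfi1 fell by 0.99 (adjusted p = 0.0311), Spry1, an inhibitor of RAS-ERK signaling, rose by 1.34 (adjusted p = 0.00621, stable), and Dusp5 and Trib3 rose by 1.84 (adjusted p = 0.0193) and 1.88 (adjusted p = 0.0461). Spry4, of the same family as Spry1, was between 0.681 and 5.02 over the 12 libraries and not called.

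**Figure D5:**
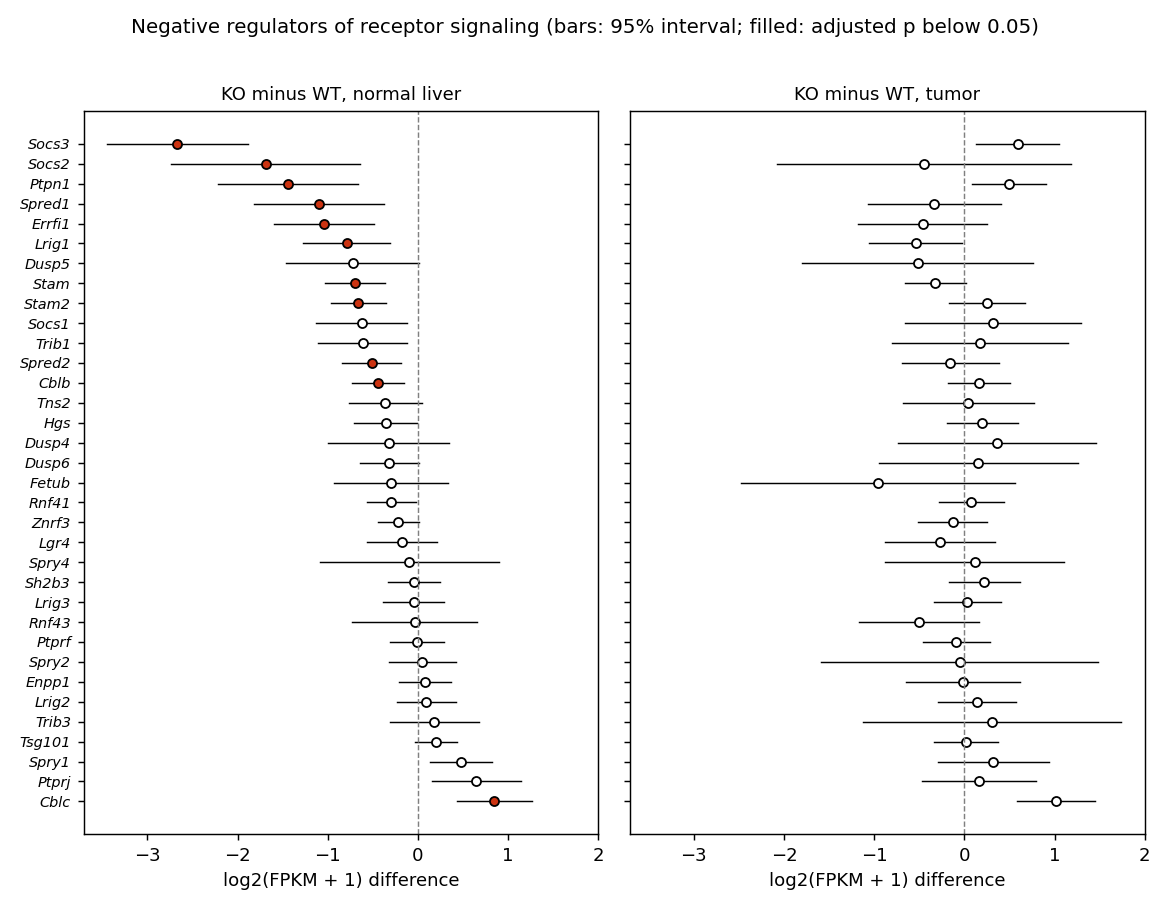
Difference of log2(FPKM + 1) between KO and WT for genes that restrain receptor signaling, in normal liver (left) and tumor (right) on 1 scale, with 95% intervals from limma; filled points have an adjusted p below 0.05. In liver 10 fell and 1 rose, and in tumor none was called; Ahsg, listed at 0 in 1 WT tumor, is left out of the plot.

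Of 50 other genes of receptor tyrosine kinases and related receptors 21 were tested. In KO liver 2 rose, Fgfrl1 (1.36, adjusted p = 0.0119), whose protein lacks the kinase domain, and Ephb4 (1.02, adjusted p = 0.0155). In the same comparison 2 fell, Epha2 and Flt1, and the share called was near the 18.1% of all entries. From KO liver to KO tumor 3 rose, where 9.09% of all entries did. Ddr1, a collagen receptor, was at 0.557 to 0.870 in KO liver and 5.61 to 18.0 in KO tumors (2.95 ± 0.39, adjusted p = 0.00965), and at 2.14 to 5.52 in WT tumors against 0.409 to 0.727 in WT liver (1.71 ± 0.28, adjusted p = 0.0119). Csf1r and Pdgfrb, receptors of macrophages and of stellate cells that also stand in the marker lists above, were the other two, at changes of 1.06 and 1.37. None was called between KO and WT tumors (6 at an unadjusted p below 0.05, against 17.6% of all entries). Of the other FGF receptor genes, Fgfrl1 was called in KO liver as given above, while Fgfr1, Fgfr2 and Fgfr3 were not called in any comparison. Fgfr1 was at 1.07 to 7.62 FPKM, Fgfr2 at 2.11 to 26.4 and Fgfr3 at 3.34 to 15.8 over the 12 libraries.

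Among 13 tested genes known to respond to these receptors, none was called in KO liver (4 at an unadjusted p below 0.05, as were 37.6% of all entries). Ier3, an early response gene of the ERK cascade, was the 1 pathway gene called between KO and WT tumors, at 35.2, 21.3 and 22.1 in KO tumors and 3.03, 2.60 and 3.33 in WT tumors (2.74 ± 0.23, adjusted p = 0.0306). This call was lost without any 1 of the WT tumors, without KO tumor 2, with the replicate block and without the filter on low FPKM (adjusted p at most 0.145). From KO liver to KO tumor Ier3 rose by 3.35 (adjusted p = 0.00364, stable), Egr1 by 2.00 (adjusted p = 0.0365) and Myc by 1.89 (adjusted p = 0.0145). Cyclin D1 shares an entry with Mir3962 and was at 13.5 to 27.5 in WT tumors and 4.28 to 9.31 in WT liver (1.32 ± 0.33, adjusted p = 0.036). The KO effect on Ier3 differed between tumor and liver (3.37, adjusted p = 0.00253, stable). Pck1, a gluconeogenic gene that insulin represses, was at 1015 to 1652 in WT liver and 300.9 to 488.4 in WT tumors (-1.76 ± 0.26, adjusted p = 0.00882).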

How the data were processed

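RNA-seq of 12 mouse liver libraries was used. Per the labels' protocols, polyadenylated RNA was selected and the library kit does not mark strand. The authors deposited 1 FPKM value per gene entry and library. Per the submitters' processing notes, these were made with TopHat2 2.1.1 and Cufflinks 2.2.1 on mm10, with options and annotation not stated in the sources used here. FPKM values are not counts, so no count model was used and no counting error can be given. Low values did not recover whole reads (at most 1.148% fell on a common ratio between 2 libraries).

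Entries with 3 or more of the 12 libraries at FPKM 1 or above (11671) were tested on log2(FPKM + 1) with limma 3.58.1 in R 4.3.3. The fit used empirical Bayes moderation with a variance trend, two-sided tests and Benjamini-Hochberg adjustment over all entries tested, with calls at an adjusted p below 0.05. Each comparison used its own 6 libraries, and the genotype by tissue interaction used all 12. The fits were checked on simulated data.

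The receptor genes, pathway lists and marker lists were chosen with earlier results of these data known, and lists are described by counts without a set test. Genes named are the receptors, Setd2, up to 3 called members per list and comparison with the largest change, a set of textbook genes, and the 3 entries closest to each receptor by Pearson r, of which 1 is not reported here. Marker genes, clock genes and genomic neighbors were added for context, and other called members of a list and Fgf15, Nrg1 and Btc values were added after they were seen. Positions come from GENCODE vM21 on GRCm38, which mm10 names, and placed 90.2% of tested entries. Promoters come from RefSeq (GRCm38.p6).

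Alternatives were pseudocounts of 0.1 and 5, no filter, a common FPKM sum, median-of-ratios scaling, 1 fit of 12 libraries, the replicate number as a block, removal of the transcript length trend, and leaving out each library. Applying them to the pathway lists was decided after the data were seen.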

Additional observations from a re-analysis of the deposited data

How the results depend on the processing

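Of 450 changes of single receptors recomputed under alternatives, 406 kept their direction and side of the threshold, 7 gained a call, 12 lost one and 25 reversed. The rise of Axl from KO liver to KO tumor was called in all of them. In KO against WT liver, 1 of the 6 receptors was called as reported, 0 without the filter on low FPKM and in 1 fit of all 12 libraries, 2 with a common FPKM sum (Egfr and Met), and 0 to 2 with 1 library left out. In KO against WT tumor, 0 were called as reported, 1 in 1 fit of all 12 libraries (Axl), and 0 to 0 with 1 library left out. From liver to tumor in WT, 1 was called as reported, 0 without the filter and in 1 fit of all 12 libraries, 2 with a common FPKM sum (Egfr and Fgfr4), and 0 to 2 with 1 library left out. From liver to tumor in KO the count was 1 throughout, and for the interaction it was 0 as reported and 0 to 1 with 1 library left out (Axl without WT tumor 1). Where a fit without 1 library left that group with 2, it still estimated the spread.

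Deviations of libraries with the same replicate number correlated at -0.28 to 0.35, and those of libraries with different numbers at -0.30 to 0.21. The highest value was that of replicate 1 of KO and WT tumors. The ranges overlap, so they do not settle whether the numbers pair the libraries. With the replicate number as a block, 0 receptors were called in KO liver, 0 in KO tumors, 1 from liver to tumor in WT, 1 in KO and 0 for the interaction. Over all entries the block gave 153, 0, 1235, 1420 and 114 calls, against 2113, 9, 1981, 1664 and 243 without it.

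None of the reversed changes was called in either setting. They were Axl in KO liver (-0.003 with a pseudocount of 5, -0.007 with median-of-ratios scaling, -0.174 to 0.222 with 1 library left out) and Insr from liver to tumor (0.113 in WT with a common FPKM sum, -0.006 in KO with the length trend removed, -0.105 to 0.283 in KO with 1 library left out). With a common FPKM sum Met (0.319), Erbb3 (0.007) and Fgfr4 (0.129) from liver to tumor in KO and Erbb3 in the interaction (0.076) also reversed. That scaling shifted the median of all entries from -0.02 to 0.34 for KO tumor against liver, from -0.04 to 0.21 in WT and from 0.02 to 0.12 between tumors, and from 0.02 to 0.13 for the interaction. With 1 library left out, changes ranged from -0.289 to 0.066 for Met and -1.378 to 0.018 for Egfr between tumors, from -0.114 to 0.453 for Axl from liver to tumor in WT, from -0.245 to 0.11 for Met and -1.247 to 0.149 for Egfr in KO, and from -0.375 to 0.238 for Erbb3 in the interaction. The cause was not tested.

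Counts over all entries, which give the background shares, moved further. In the order KO liver, KO tumor, WT tumor against liver, KO tumor against liver and interaction, they were 868, 1, 1257, 543 and 56 without the filter and 240 to 1964, 0 to 266, 454 to 2134, 129 to 2981 and 7 to 1368 with 1 library left out. In 1 fit of all 12 libraries they were 1144, 1017, 1105 and 3340. Between tumors they were 24 with a common FPKM sum, 14 with median-of-ratios scaling (4 higher, 10 lower, against 4 and 5) and 19 with the length trend removed, and for the interaction 120 with a common FPKM sum (82 higher, 38 lower, against 134 and 109). A common FPKM sum changed the split of calls to 1607 higher and 400 lower in WT tumor against liver (935 and 1046 as reported) and to 1686 and 260 in KO (1061 and 603). Depth is unknown, so whether the low values of Erbb2, Igf1r and Mst1r differ beyond counting error could not be judged, and 3 libraries per group limit the precision of all values.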
